A study of Mus musculus with 4 samples.

Results

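The dendritic cell maturation genes described here are 10 mouse genes, namely Ccr7, Fscn1, Fabp5, Ccl17, Ccl22, Cd80, Cd86, Cd83, Cd40 and Cd209a, of 32285 features counted in spleen cells. They were picked by gene symbol, and their molecule counts were followed in dendritic cells, monocytes and B cells. An immature dendritic cell takes up antigen in the tissue. On maturation it displays the costimulatory proteins CD80, CD86 and CD40 that T cells need for activation, bundles its actin with fascin, and uses the receptor CCR7 to follow the chemokines CCL19 and CCL21 into the T-cell areas of lymphoid organs. Cd209a encodes an antigen-uptake lectin of the DC-SIGN family and was included as a marker of the immature state.

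Single-cell RNA sequencing was performed on spleens of mice aged 10 weeks, 4 h after an intravenous injection of 100 µl. The 4 groups were TRIF-KO mice (C57BL/6 background) given 9 µg recombinant murine TNF, wild-type (WT) C57BL/6 mice given the same TNF dose, TRIF-KO mice given PBS, and WT mice given PBS. All samples had red blood cells lysed and dead cells removed, and each group had 1 library, with the number of mice in a library and the TRIF-KO allele not given in the labels. The comparison asks whether the TNF response differs without TRIF, the Toll-like receptor adaptor encoded by Ticam1.

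The libraries held 8060 barcodes in TRIF-KO TNF, 6855 in WT TNF, 6508 in TRIF-KO PBS and 2683 in WT PBS, with 23614028 to 67276803 UMIs (unique molecular identifiers, each standing for 1 captured RNA molecule). After filtering, 6662, 5033, 5403 and 2452 cells remained in this order, at medians of 4409 to 7182 UMIs per cell. The WT PBS library stood apart in having the fewest cells and the smallest share of barcodes above the mitochondrial limit, 6.26% against 10.8% to 22.4% in the other 3. Library pairs shared 3 to 15 cell barcodes. Since each group is a single library, no test was possible, and 2-fold is used below as a size and not as a call. Every 95% interval in parentheses covers counting error only and takes no account of molecules that lie together in 1 cell. Levels are in CPM, the UMIs of a gene per 1000000 UMIs of the cell class in that library.

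The promoters of Fscn1, Ccl17 and Ccl22 are shown because these genes had a UMI in few T-gated or erythroid-gated cells and had more in dendritic cells of both TNF libraries than of either PBS library. Each window runs from 250 bases before to 50 bases after the transcription start, 5′ to 3′ on the strand of the gene, from RefSeq on build GRCm38.p6. It covers chr5:142960105-142960404 (plus strand) for Fscn1, chr8:94810203-94810502 (plus strand) for Ccl17 and chr8:94745434-94745733 (plus strand) for Ccl22. Capitals mark the letters TATAAA.
Fscn1: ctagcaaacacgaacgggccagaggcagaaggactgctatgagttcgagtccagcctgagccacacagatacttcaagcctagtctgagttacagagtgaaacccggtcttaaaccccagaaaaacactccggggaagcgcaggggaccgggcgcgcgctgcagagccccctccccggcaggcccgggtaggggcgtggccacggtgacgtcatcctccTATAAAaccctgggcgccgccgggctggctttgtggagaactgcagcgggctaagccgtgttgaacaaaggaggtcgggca
Ccl17: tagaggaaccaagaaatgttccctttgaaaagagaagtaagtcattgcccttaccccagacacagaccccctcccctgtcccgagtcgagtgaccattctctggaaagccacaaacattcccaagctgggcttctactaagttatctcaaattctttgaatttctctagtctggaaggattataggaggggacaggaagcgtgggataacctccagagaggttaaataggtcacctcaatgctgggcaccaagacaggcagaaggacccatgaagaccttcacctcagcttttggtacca
Ccl22: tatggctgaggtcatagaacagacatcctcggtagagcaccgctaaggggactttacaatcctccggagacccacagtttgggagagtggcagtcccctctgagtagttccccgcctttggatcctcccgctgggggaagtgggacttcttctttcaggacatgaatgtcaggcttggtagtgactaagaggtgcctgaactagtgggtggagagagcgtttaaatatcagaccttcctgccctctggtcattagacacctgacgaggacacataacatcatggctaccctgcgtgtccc
Fscn1 had TATAAA 31 bases before its start, and these letters occur on either strand in 13.6% of 32851 mouse promoters of the same length. Neither a kappa B type sequence (GGG and TTCC with any 3 bases between them, in 5.56% of promoters on either strand) nor an interferon-response type sequence (GAAA and GAAA with any 2 bases between them, in 3.44%) was found in these 3 windows or in those of Cd80 and Cd209a. That says only that these letters are absent from the windows. Ccl17 and Ccl22 lie close together on chromosome 8. 5 of the 10 members matched the promoter table, and Ccr7, Fabp5, Cd86, Cd83 and Cd40 are named only.

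A cell was placed in a class when it held UMIs of at least 3 of that class's markers and at least 1 more than of any other of the 11 lists. None of the 10 genes is in a list. The dendritic list has 12 markers, among them Flt3, Zbtb46, Itgax, Xcr1 and Clec9a. This gate found 44 dendritic cells in TRIF-KO TNF, 33 in WT TNF, 42 in TRIF-KO PBS and 41 in WT PBS, with median depths of 11108, 8675, 6844 and 13959 UMIs per cell. The dendritic markers themselves were lower with TNF. Their summed level was 998 CPM in TRIF-KO TNF and 707 CPM in WT TNF, against 2088 CPM in TRIF-KO PBS and 2376 CPM in WT PBS. UMIs were found for 10, 9, 12 and 12 of the 12 markers, with Clec10a and Mgl2 at 0 in both TNF libraries and Itgae at 0 in WT TNF. The monocyte list summed to 222 and 261 CPM in TRIF-KO TNF and WT TNF and to 378 and 480 CPM in TRIF-KO PBS and WT PBS. The macrophage list summed to 85.9, 88.0, 139 and 14.9 CPM in the same order, and the part of these lists in the results was not tested. The limit of 3 markers mattered for many cells. 23, 20, 14 and 2 gated cells had exactly 3 markers, and 14, 22, 22 and 1 cells with 2 dendritic markers lay just outside.

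Clusters of all cells, made without the 10 genes and without the companion genes, gave a second and wider set of dendritic cells. The 2 dendritic-like clusters held 199 cells in TRIF-KO TNF, 185 in WT TNF, 175 in TRIF-KO PBS and 66 in WT PBS. One had Xcr1, Cadm1 and Naaa among its 10 leading genes. The other was led by S100a4 and had no dendritic marker and none of another class among its 10 leading genes, although UMIs of 11 of the 12 dendritic markers were detected in it. Their median depths were 3206, 2887 and 2954 UMIs per cell in TRIF-KO TNF, WT TNF and TRIF-KO PBS, against 13079 in WT PBS, so shares of cells with a UMI are also given for cells thinned to 2000 UMIs. The gate left 135, 136, 108 and 16 of these cluster cells without a class. Values of the gate and of the clusters are therefore given side by side.

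**Figure D1:**
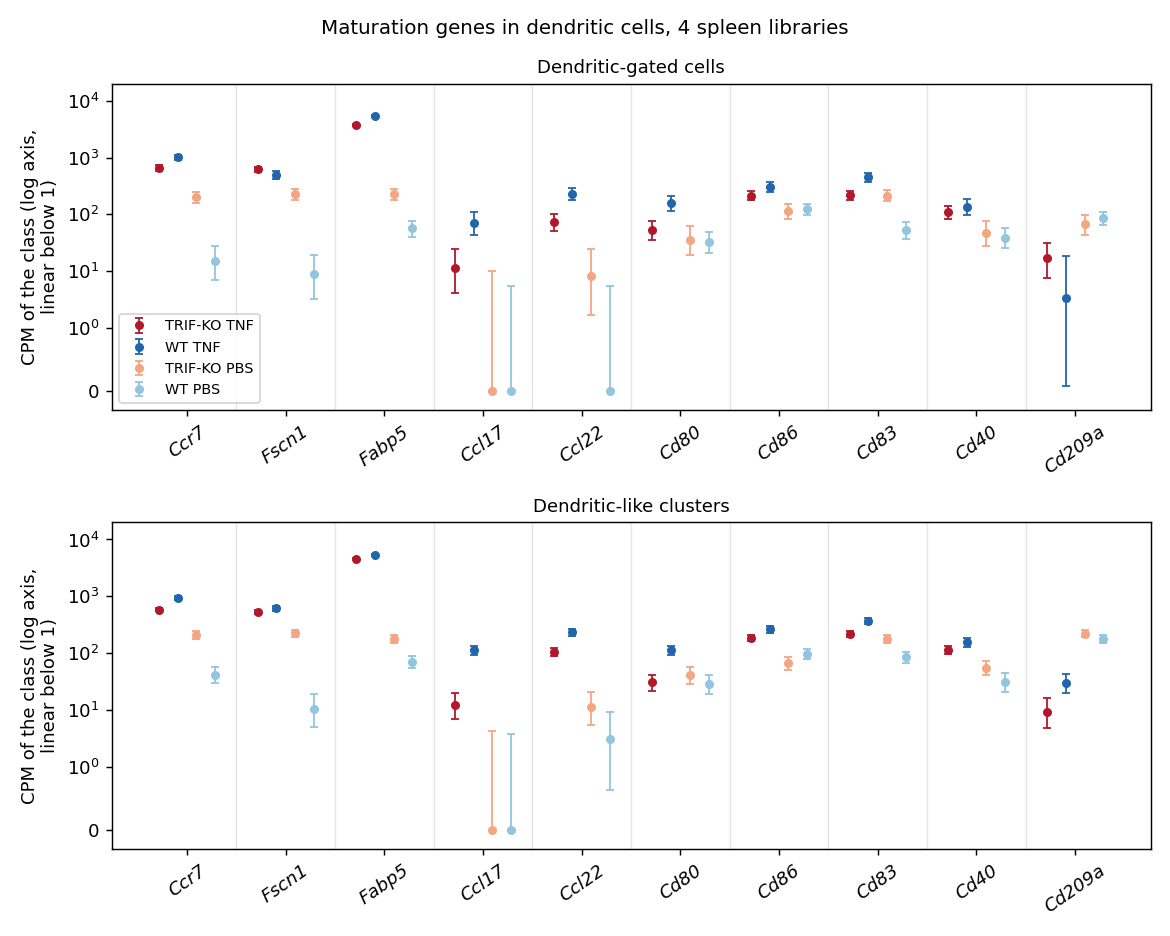
Level of each of the 10 genes (CPM of the class, log axis that is linear below 1) in dendritic-gated cells (top) and in the dendritic-like clusters (bottom). Points are single libraries in the order TRIF-KO TNF, WT TNF, TRIF-KO PBS and WT PBS, and bars are exact Poisson 95% intervals. Ccr7, Fscn1, Fabp5, Ccl17 and Ccl22 lie higher in both TNF libraries than in both PBS libraries, while Cd209a lies lower.

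Ccr7, the receptor for CCL19 and CCL21 (chromosome 11, 99144196 to 99155077, minus strand, GRCm38 as are all gene positions below), was higher with TNF in both genotypes. Dendritic-gated cells held 352 UMIs in TRIF-KO TNF and 297 in WT TNF, against 72 in TRIF-KO PBS and 10 in WT PBS. As levels these are 658 CPM (591 to 730), 1005 CPM (894 to 1126), 200.2 CPM (157 to 252) and 14.9 CPM (7.15 to 27.4) in the same order. The intervals of the TNF libraries did not overlap those of the PBS libraries, and WT PBS was the lowest. The ratio of TNF over PBS was 3.28-fold in TRIF-KO (log2 1.72, 1.35 to 2.10) and 67.4-fold in WT (log2 6.08, 5.18 to 7.15). In the clusters the levels were 583 CPM in TRIF-KO TNF, 936 CPM in WT TNF, 209.7 CPM in TRIF-KO PBS and 41.3 CPM in WT PBS. The log2 ratios there were 1.47 (1.24 to 1.71) in TRIF-KO and 4.503 (4.05 to 4.998) in WT.

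More dendritic-gated cells had Ccr7 with TNF. The share was 52.3% in TRIF-KO TNF and 54.5% in WT TNF, against 9.52% in TRIF-KO PBS and 2.44% in WT PBS. Thinned to 2000 UMIs, with 2, 0, 4 and 0 cells left out, it was 38.1%, 36.4%, 7.89% and 2.44%. Erythroid-gated cells, which should lack Ccr7, had it in 0.358%, 0.954%, 1.65% and 0.787% of cells at median depths of 14034.5, 12323, 11397 and 15872.5 UMIs, so the dendritic shares of both TNF libraries stood far above this background. The PBS levels rested on very few cells. A single cell held 54.2% of the Ccr7 UMIs in TRIF-KO PBS, and 1 cell held all 10 in WT PBS. Without the highest cell of each library the TRIF-KO log2 ratio was 2.59.

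Fscn1 encodes fascin, the actin bundler of dendritic cell protrusions (chromosome 5, 142960343 to 142973185, plus strand). It had 332 UMIs (620.2 CPM) in TRIF-KO TNF and 148 UMIs (501 CPM) in WT TNF, against 82 UMIs (228 CPM) in TRIF-KO PBS and 6 UMIs (8.94 CPM) in WT PBS. Fscn1 was thus higher with TNF, 2.72-fold in TRIF-KO (log2 1.44, 1.09 to 1.81) and 56.0-fold in WT (log2 5.81, 4.65 to 7.28). In the clusters Fscn1 stood at 534 CPM in TRIF-KO TNF and 612 CPM in WT TNF, against 223 CPM in TRIF-KO PBS and 10.3 CPM in WT PBS. The 2 TNF libraries thus lay closer to each other than the 2 PBS libraries did. Between the TNF libraries the sign turned with the cell set, at log2 0.31 (0.02 to 0.60) for TRIF-KO TNF over WT TNF by gate, −0.20 (−0.36 to −0.03) by cluster, −0.15 with a gate of 2 markers and −1.58 with a gate of 4. Fscn1 was found in 52.3% and 60.6% of dendritic-gated cells in TRIF-KO TNF and WT TNF, and in 14.3% and 7.32% in TRIF-KO PBS and WT PBS. After thinning these shares were 35.7%, 36.4%, 10.5% and 2.44%. The share was 0% to 0.394% in erythroid-gated cells and 0% to 0.463% in T-gated cells, whose median depths were 6001 to 9410.5 UMIs. In TRIF-KO PBS 1 cell held 67.1% of the Fscn1 UMIs, and without the highest cell of each library the TRIF-KO log2 ratio was 2.74.

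Fabp5, an intracellular carrier of fatty acids (chromosome 3, 10012548 to 10016607, plus strand), had the most UMIs of the 10 genes in both TNF libraries. Dendritic-gated cells held 2011 UMIs (3757 CPM) in TRIF-KO TNF and 1604 UMIs (5429 CPM) in WT TNF, against 82 UMIs (228 CPM) in TRIF-KO PBS and 38 UMIs (56.6 CPM) in WT PBS. TNF over PBS was 16.5-fold in TRIF-KO (log2 4.04, 3.72 to 4.38) and 95.8-fold in WT (log2 6.58, 6.12 to 7.09). Cluster levels were 4570.0 CPM in TRIF-KO TNF, 5436 CPM in WT TNF, 177 CPM in TRIF-KO PBS and 71.2 CPM in WT PBS. The 2 TNF libraries again lay close together, at log2 −0.53 (−0.63 to −0.44) by gate and −0.25 (−0.30 to −0.20) by cluster for TRIF-KO over WT. Shares of gated cells with Fabp5 were 63.6%, 60.6%, 9.52% and 26.8% in TRIF-KO TNF, WT TNF, TRIF-KO PBS and WT PBS, and 57.1%, 51.5%, 7.89% and 17.1% after thinning. Erythroid-gated cells had Fabp5 in 1.65% to 4.58%. In TRIF-KO PBS 1 cell held 81.7% of the Fabp5 UMIs. Without the highest cell of each library the log2 ratio of TNF over PBS was 6.28 in TRIF-KO and 6.85 in WT.

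Ccl17 and Ccl22 encode ligands of CCR4, a chemokine receptor of regulatory and other activated T cells. Ccl22 (chromosome 8, 94745590 to 94751699, plus strand) had 39 UMIs (72.9 CPM) in TRIF-KO TNF and 68 UMIs (230.1 CPM) in WT TNF, against 3 UMIs in TRIF-KO PBS and 0 in WT PBS. The ratio was 8.73-fold in TRIF-KO (log2 3.13, 1.47 to 5.47) and at least 51.5-fold higher in WT TNF, taken against a floor of 3 counts in the WT PBS library. Bounds against the floor, here and below, leave out the counting error of the library that has UMIs. The exact interval of this WT ratio began lower, at log2 5.35. In the clusters Ccl22 had 137, 215, 10 and 3 UMIs, with log2 ratios of 3.20 (2.28 to 4.30) in TRIF-KO and 6.23 (4.66 to 8.52) in WT. Its level after TNF was lower in TRIF-KO than in WT in both cell sets, at log2 −1.66 (−2.27 to −1.07) by gate and −1.14 (−1.46 to −0.83) by cluster. By gate this rests on few cells, since in WT TNF 2 cells held 56 of the 68 UMIs. These cells had more markers of type 2 conventional dendritic cells (such as Sirpa and Clec4a4) than of type 1. Clec10a and Mgl2, also type 2 markers, had 0 UMIs in dendritic-gated cells of both TNF libraries. The highest WT TNF cell held 41.2% of the Ccl22 UMIs, and without the highest cell of each library the log2 ratio was −1.24. By cluster no more cells of WT TNF carried Ccl22. In the S100a4-led cluster 22 of 107 TRIF-KO TNF cells held 95 UMIs and 17 of 103 WT TNF cells held 188. In the other cluster the levels were 88.4 CPM in TRIF-KO TNF and 100.3 CPM in WT TNF. Ccl22 was present in 22.7%, 24.2%, 2.38% and 0% of gated cells, the 0 allowing a share of up to 7.32%, and in 9.52%, 12.1%, 0% and 0% after thinning. In T-gated cells the share was 0% to 0.278% and in erythroid-gated cells 0% to 0.826%.

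Ccl17 (chromosome 8, 94810453 to 94812036, plus strand) was rarer and was 0 in both PBS libraries. Gated cells held 6 UMIs in TRIF-KO TNF and 21 in WT TNF, 2 cells in each library, which is too few to pass the filter described below. The clusters held 16 UMIs (12.3 CPM) in TRIF-KO TNF and 104 UMIs (112 CPM) in WT TNF. Against the floor, Ccl17 was at least 3.59-fold higher with TNF in TRIF-KO and at least 36.3-fold higher in WT. TRIF-KO TNF over WT TNF was log2 −3.19 (−4.05 to −2.43) in the clusters. In TRIF-KO TNF 1 cell held 31.2% of these UMIs and in WT TNF 1 cell held 24.0%, so few cells carried the gene in either library.

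The costimulatory genes differed less between the libraries. Cd80 (chromosome 16, 38455561 to 38496335, plus strand) encodes a ligand of CD28 and CTLA4. It had 28 UMIs (52.3 CPM) in TRIF-KO TNF and 47 UMIs (159 CPM) in WT TNF, against 13 UMIs (36.2 CPM) in TRIF-KO PBS and 22 UMIs (32.8 CPM) in WT PBS. WT TNF stood alone above the other 3, whose intervals overlapped. Cd80 with TNF over PBS was 1.45-fold in TRIF-KO (log2 0.53, −0.46 to 1.61) and 4.85-fold in WT (log2 2.28, 1.52 to 3.08). In the clusters these log2 ratios were −0.42 (−1.11 to 0.27) and 1.958 (1.34 to 2.62) for TRIF-KO and WT.

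Cd86 (chromosome 16, 36603869 to 36666081, minus strand), the other ligand of CD28 and CTLA4, had 114 UMIs (213 CPM) in TRIF-KO TNF and 90 UMIs (305 CPM) in WT TNF, against 41 UMIs (114 CPM) in TRIF-KO PBS and 83 UMIs (124 CPM) in WT PBS. The 2 TNF libraries lay above the 2 PBS libraries without overlap of the intervals. Their ratio was 1.87-fold in TRIF-KO (log2 0.90, 0.37 to 1.45) and 2.46-fold in WT (log2 1.30, 0.85 to 1.75). In the clusters the log2 ratios were 1.45 (1.03 to 1.88) in TRIF-KO and 1.44 (1.09 to 1.81) in WT. Cd86 had a UMI in 77.3%, 72.7%, 52.4% and 68.3% of gated cells, against 2.75% to 6.71% of T-gated cells. After thinning the shares were 31.0%, 39.4%, 15.8% and 22.0%.

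Cd83 (chromosome 13, 43784775 to 43803132, plus strand) encodes a surface protein long used to mark mature dendritic cells. It had 117 UMIs (219 CPM) in TRIF-KO TNF and 133 UMIs (450.1 CPM) in WT TNF, against 77 UMIs (214 CPM) in TRIF-KO PBS and 36 UMIs (53.7 CPM) in WT PBS. The 2 TRIF-KO libraries did not differ beyond counting error, at log2 0.03 (−0.40 to 0.46), while WT TNF was 8.39-fold above WT PBS (log2 3.07, 2.53 to 3.64). The TRIF-KO PBS level rested on few cells, since 3 cells held 39 of its 77 UMIs. In the clusters the log2 ratios were 0.29 (−0.00 to 0.58) in TRIF-KO and 2.11 (1.76 to 2.48) in WT. After TNF Cd83 was lower in TRIF-KO than in WT, at log2 −1.04 (−1.41 to −0.67) by gate and −0.77 (−1.01 to −0.54) by cluster.

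Cd40 (chromosome 2, 165055627 to 165072948, plus strand), the receptor for the T-cell ligand CD40L, had 59 UMIs (110.2 CPM) in TRIF-KO TNF and 40 UMIs (135 CPM) in WT TNF, against 17 UMIs (47.3 CPM) in TRIF-KO PBS and 26 UMIs (38.8 CPM) in WT PBS. TNF over PBS was 2.33-fold in TRIF-KO (log2 1.22, 0.42 to 2.09) and 3.49-fold in WT (log2 1.80, 1.06 to 2.58). Cd40 was thus higher with TNF in both genotypes. For TRIF-KO TNF over WT TNF the interval by gate, log2 −0.90 to 0.32, spanned 0. By cluster, with 148 and 143 UMIs, this ratio was log2 −0.44 (−0.79 to −0.10). In T-gated cells 0.306% to 0.649% had a Cd40 UMI, against 16.7% to 69.7% of dendritic-gated cells. Thinned dendritic shares were 19.0% and 27.3% in TRIF-KO TNF and WT TNF, against 5.26% and 7.32% in TRIF-KO PBS and WT PBS.

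Cd209a (chromosome 8, 3743397 to 3748984, minus strand) went the other way. Gated cells held 9 UMIs in TRIF-KO TNF and 1 in WT TNF, against 24 in TRIF-KO PBS and 58 in WT PBS, below the filter. In the clusters it had 12 UMIs (9.20 CPM) in TRIF-KO TNF and 28 UMIs (30.2 CPM) in WT TNF, against 194 UMIs (221 CPM) in TRIF-KO PBS and 173 UMIs (179 CPM) in WT PBS. It was 24.0-fold lower with TNF in TRIF-KO (log2 −4.59, −5.56 to −3.75) and 5.91-fold lower in WT (log2 −2.56, −3.19 to −1.98). Cd209a was found in 2.51% and 3.24% of cluster cells in TRIF-KO TNF and WT TNF and in 17.7% and 28.8% in TRIF-KO PBS and WT PBS, against 0% to 0.216% of T-gated cells. After thinning the cluster shares were 1.59%, 4.35%, 17.8% and 18.6%. Clec10a and Mgl2, markers that are often found in the same dendritic cells, were at 0 in both TNF libraries of the gate, and the part of a shift between kinds of dendritic cells in this result was not tested.

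**Figure D2:**
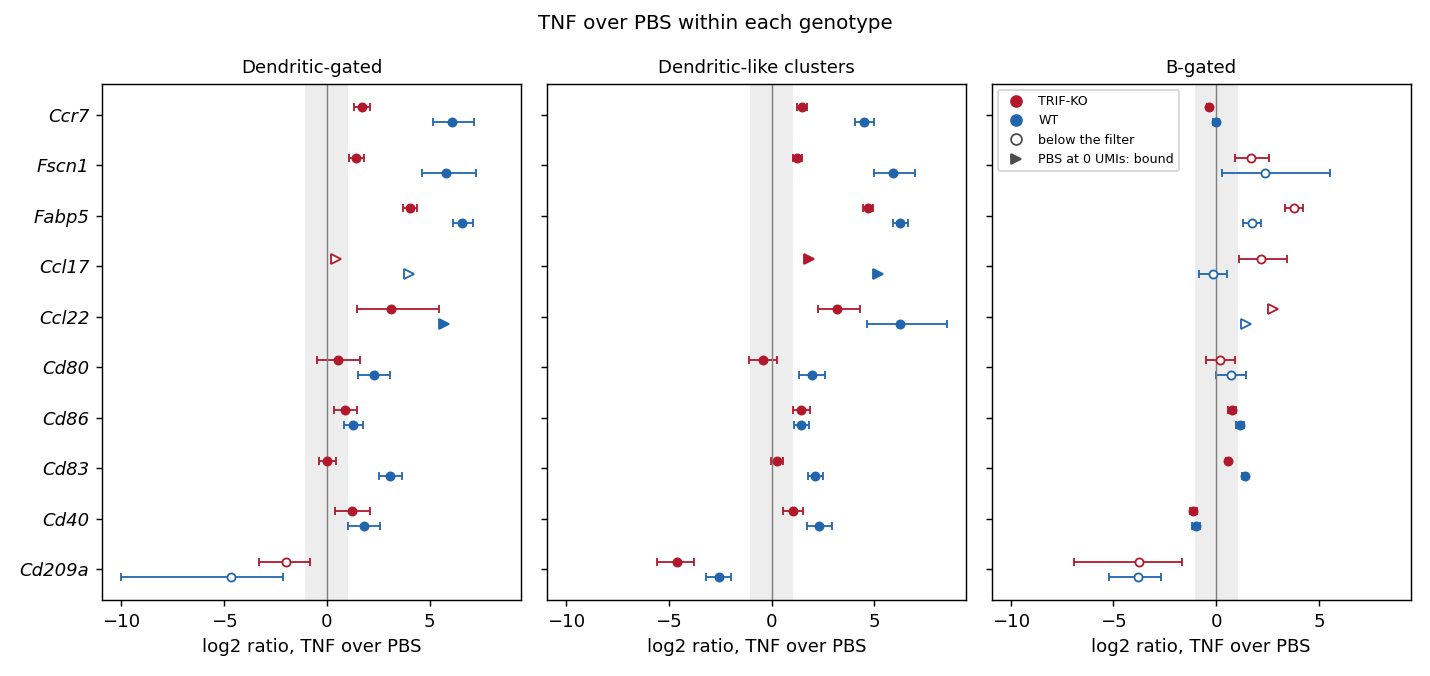
Log2 ratio of TNF over PBS for each gene in the TRIF-KO libraries (red) and the WT libraries (blue), in dendritic-gated cells, dendritic-like clusters and B-gated cells. Bars are exact 95% counting intervals, open symbols are genes below the filter, triangles are lower bounds where PBS had 0 UMIs, and the grey band marks less than 2-fold. In dendritic cells the WT points lie to the right of the TRIF-KO points for Ccr7, Fscn1, Fabp5, Cd80 and Cd83, while for Cd86 they lie close together.

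Counts over the list were read against all genes that passed the same filter, at least 100 UMIs over the 4 libraries and at least 50 CPM in 1 of them. In dendritic-gated cells 8 members passed, all but Ccl17 and Cd209a, among 2535 genes. In TRIF-KO TNF over TRIF-KO PBS 5 of the 8 were at least 2-fold higher (Ccr7, Fscn1, Fabp5, Ccl22 and Cd40) and none 2-fold lower, against 9.74% higher and 6.63% lower of all genes. The median log2 ratio was 1.33 for the members and 0.08 for all genes. In WT TNF over WT PBS all 8 were at least 2-fold higher, against 8.64% higher and 14.5% lower of all genes. The members' median was 3.07 over the 7 with a ratio, or 4.38 with Ccl22 at its bound, beside −0.13 for all genes. A gene that passed the filter only through its TNF libraries had to differ, so these counts describe the genes that passed and no more. In the clusters all 10 members passed. There 7 were higher and 1 lower in TRIF-KO (background 5% and 8.98%), and 9 were higher and 1 lower in WT (8.59% and 16.8%), the lower one being Cd209a.

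The comparisons between genotypes use the same 4 libraries as those between treatments and are no independent evidence. In TRIF-KO TNF over WT TNF 3 of the 8 gated members were at least 2-fold lower, namely Ccl22, Cd80 and Cd83, and none was 2-fold higher. The background was 1.97% lower and 6% higher, and the median log2 ratio was −0.57 for the members and 0.10 for all genes. In the clusters 4 of 10 were 2-fold lower (Ccl17, Ccl22, Cd80 and Cd209a), against 1.3% of all genes lower and 3.59% higher. With a gate of 4 markers, which left 21 and 13 cells in TRIF-KO TNF and WT TNF, all 5 measured members were 2-fold lower, against 7.30% of all genes measured under that gate. In TRIF-KO PBS over WT PBS 4 of the 8 gated members were at least 2-fold higher and none 2-fold lower, against 2.64% and 4.81% of all genes, shares that take in any gene at 0 in 1 of the libraries. These were Ccr7 at log2 3.75 (2.79 to 4.87), Fscn1 at 4.67 (3.49 to 6.16), Fabp5 at 2.01 (1.44 to 2.60) and Cd83 at 1.997 (1.41 to 2.61). Ccl22 had 3 against 0 UMIs, too few for a fold. The median was 1.997 over the 7 with a ratio, or 1.45 with Ccl22 at its bound, beside −0.12 for all genes. For Ccr7 and Fscn1 the difference lay mostly in the 6 gated cells of TRIF-KO PBS with no majority of type 1 (such as Xcr1 and Clec9a) or type 2 dendritic markers, and WT PBS had 0 such cells. Of the 72 Ccr7 UMIs of TRIF-KO PBS 67 lay in 2 of these cells, and of the 82 Fscn1 UMIs 74 lay in 4 of them. For Cd83 39 of the 77 UMIs lay in 3 of them. For Fabp5 the difference was that of 1 cell, since without the highest cell of each library its log2 ratio was −0.01. In the clusters the same comparison gave 5 of 10 higher, with Ccr7 at 2.34 (1.84 to 2.88), Fscn1 at 4.44 (3.53 to 5.52) and Cd83 at 1.05 (0.66 to 1.46), against 3.29% of all genes higher and 2.95% lower. The others were Fabp5 at 1.31 (0.89 to 1.74) and Ccl22 at 1.88 (−0.08 to 4.38). Ccl22 had 10 against 3 UMIs, and its interval spanned 0. Cells with no majority of either type were again unequal, at 68 of 175 in TRIF-KO PBS and 8 of 66 in WT PBS. The 68 cells held 119 of the 184 Ccr7 UMIs, 139 of the 196 Fscn1 UMIs and 63 of the 154 Cd83 UMIs of TRIF-KO PBS. The part of these cells in the ratios was not tested.

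The difference between the responses, the log2 ratio in TRIF-KO minus that in WT, was below 0 for most members. By gate it was −4.30 (−5.26 to −3.34) for Ccr7, −4.26 (−5.45 to −3.07) for Fscn1 and −2.53 (−3.09 to −1.97) for Fabp5. For Cd83 it was −3.03 (−3.70 to −2.36) and for Cd80 −1.76 (−2.94 to −0.58). For Cd86, at −0.41 (−1.08 to 0.26), and for Cd40, at −0.60 (−1.65 to 0.44), the interval spanned 0. The gated values for Ccr7 and Fscn1 lean on 1 TRIF-KO PBS cell each, with 54.2% and 67.1% of the UMIs. That for Cd83 leans on 3 cells of this library, with 39 of the 77 UMIs. Without the highest cell of each library the TRIF-KO log2 ratios were 2.59 in place of 1.72 for Ccr7, 2.74 in place of 1.44 for Fscn1 and 6.28 in place of 4.04 for Fabp5. In the clusters the values were −3.01 for Ccr7, −4.57 for Fscn1, −1.56 for Fabp5, −1.82 for Cd83, −2.36 for Cd80 and −1.29 for Cd40, with intervals below 0, while Cd86 was at −0.00 (−0.54 to 0.53). These differences rest on different libraries. For Ccr7, Fscn1 and Fabp5 the TNF libraries lay within 1.61-fold of each other in both cell sets. The PBS libraries differed by 5.08-fold to 25.5-fold for Ccr7 and Fscn1. For Fabp5 they differed by 4.03-fold by gate, a difference of 1 cell as given above, and by 2.48-fold by cluster. In the S100a4-led cluster Fabp5 lay in 27 of 126 cells of TRIF-KO PBS and 18 of 41 of WT PBS, without thinning. For Cd80 it was the TNF libraries that differed, by 3.04-fold by gate and 3.66-fold by cluster, while the PBS libraries did not differ beyond counting error. By gate 4 cells of type 1 held 23 of the 47 Cd80 UMIs of WT TNF. Among type 2 cells Cd80 lay in 11 of 20 in TRIF-KO TNF and 6 of 10 in WT TNF. In the S100a4-led cluster it lay in 23 of 107 cells of TRIF-KO TNF and 39 of 103 of WT TNF. For Cd83 both pairs differed. Genotype, mouse and library cannot be told apart here.

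The 2 dendritic-like clusters shared Ccr7 and separated on Fscn1, Fabp5 and Cd209a. In the cluster led by Xcr1, Cadm1 and Naaa (92, 82, 49 and 25 cells) Ccr7 stood at 732 CPM in TRIF-KO TNF and 1426 CPM in WT TNF, against 14.4 CPM in TRIF-KO PBS and 0 in WT PBS. In the cluster led by S100a4 (107, 103, 126 and 41 cells) it stood at 497 CPM and 735 CPM with TNF, against 299.8 CPM in TRIF-KO PBS and 81.8 CPM in WT PBS. Ccr7 was therefore high in both after TNF. Fabp5, in contrast, stood at 7165 CPM in TRIF-KO TNF and 7506 CPM in WT TNF in the S100a4-led cluster, but at 46.3 CPM and 383 CPM in the other. Fscn1 was at 784 CPM and 799 CPM against 98.9 CPM and 156 CPM in the same order. Ccl17 had 93 of its 104 WT TNF cluster UMIs in the S100a4-led cluster.

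Within the Xcr1 cluster several members were higher in WT TNF than in TRIF-KO TNF. Cd80 was at 8.41 CPM (2.29 to 21.5) in TRIF-KO TNF and 119 CPM (81.3 to 168) in WT TNF, and Cd83 at 133 CPM (102 to 170) and 446 CPM (369 to 533). The Cd80 values came from few cells, with 4 UMIs in 2 cells of TRIF-KO TNF and 32 UMIs in 10 cells of WT TNF. Cd86 was at 135 CPM (104 to 172) in TRIF-KO TNF and 297 CPM (236 to 370) in WT TNF, and Ccr7 and Cd40, at 124 CPM (94.5 to 160.1) and 212 CPM (160.3 to 274), were ordered the same way. In the S100a4-led cluster the 2 TNF libraries lay closer for Cd86, at 211 CPM (181 to 245) and 247 CPM (210.1 to 288), and for Cd83, at 261 CPM (227 to 298) and 333 CPM (291 to 381). The difference between the clusters was not tested. Splitting the gated cells by markers of the 2 kinds of conventional dendritic cells (among them Xcr1 and Clec9a for the first, Clec4a4 and Sirpa for the second) gave 18, 15, 24 and 19 cells of the first kind and 20, 10, 12 and 22 of the second. Fabp5 reached 7168 CPM in TRIF-KO TNF and 9233 CPM in WT TNF in the second kind, against 291 CPM and 19.4 CPM in the first.

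**Figure D3:**
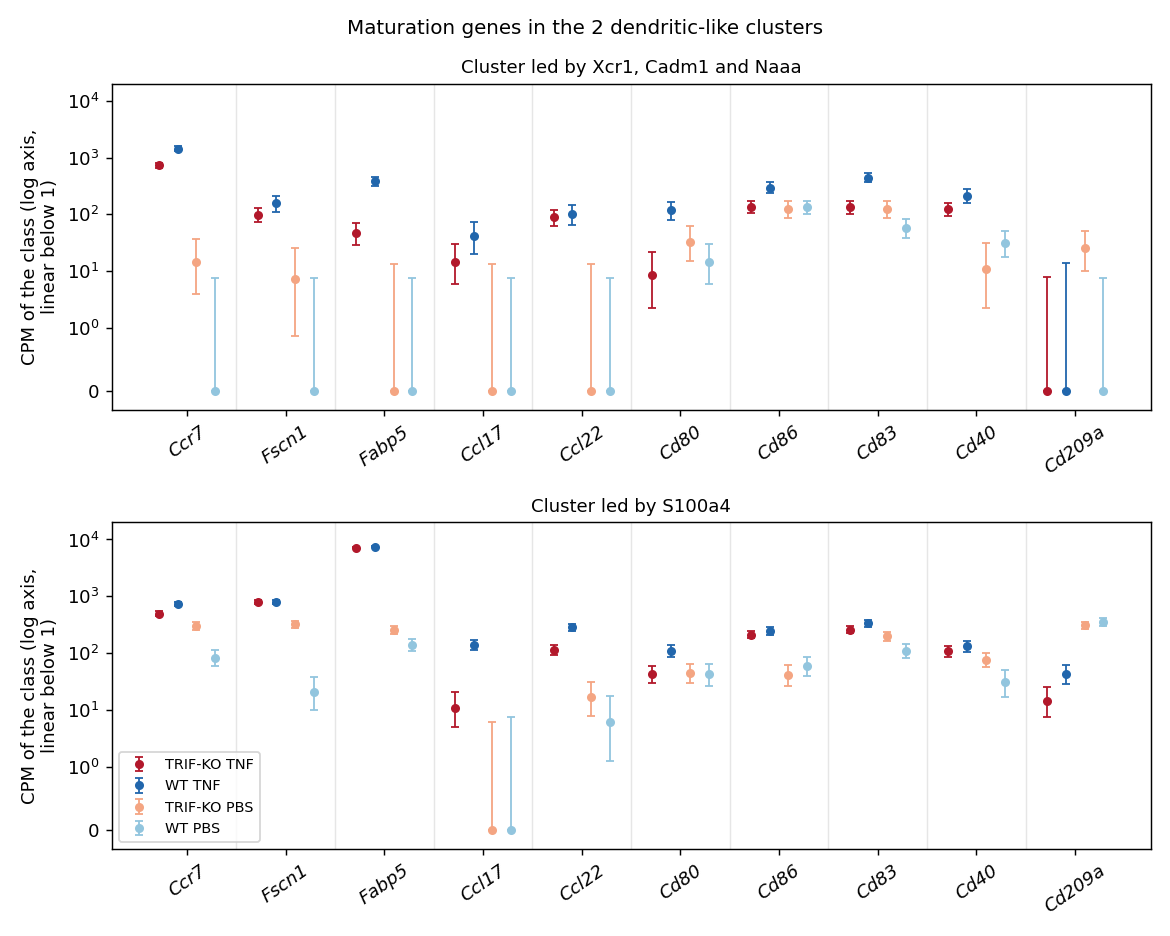
Level of each gene (CPM of the cluster, log axis that is linear below 1) in the cluster led by Xcr1, Cadm1 and Naaa (top) and in that led by S100a4 (bottom), 1 point per library with its exact Poisson 95% interval. Ccr7 is high with TNF in both, while Fabp5 reaches 7165 and 7506 CPM only in the lower panel, where Cd209a is also found in the PBS libraries.

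Cells with a UMI of both Ccr7 and Fscn1 were counted, since both genes mark mature dendritic cells. There were 64 in TRIF-KO TNF, 59 in WT TNF, 20 in TRIF-KO PBS and 5 in WT PBS, or 0.961%, 1.17%, 0.370% and 0.204% of all kept cells. Of these, 60, 56, 17 and 3 lay in the dendritic-like clusters, from which both genes had been withheld. They made up 30.2% (23.9 to 37.0) of cluster cells in TRIF-KO TNF and 30.3% (23.7 to 37.4) in WT TNF, against 9.71% (5.76 to 15.1) in TRIF-KO PBS and 4.55% (0.947 to 12.7) in WT PBS. Thinned to 2000 UMIs, with 73, 70, 68 and 7 cells left out, the shares were 19.0% (12.6 to 27.0), 25.2% (17.6 to 34.2), 9.35% (4.57 to 16.5) and 1.69% (0.0429 to 9.09). The intervals of the 2 TNF libraries overlapped, and so did those of the 2 PBS libraries. After thinning the intervals of TRIF-KO TNF and TRIF-KO PBS overlapped as well, while those of WT TNF and WT PBS did not. Among dendritic-gated cells the shares were 43.2% and 36.4% with TNF in TRIF-KO and WT, against 4.76% and 2.44% with PBS, and in erythroid-gated cells 0% to 0.394%.

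Many cells with both genes escaped the gate, since 32, 35, 13 and 2 of them had no class. The median number of dendritic markers in all cells with both genes was 2, 2, 1 and 2. Some other members were also more frequent in these cells. Within the dendritic-like clusters of the 2 TNF libraries, 116 cells with both genes had Cd83 in 67.2% (57.9 to 75.7), against 34.3% (28.7 to 40.3) of the 268 cells without both. Cd80 was found in 35.3% against 12.3%, and Ccl22 in 33.6% against 10.1%. The median depth was 7210.5 against 2495 UMIs, so levels are the fairer measure. They were 427 CPM against 171 CPM for Cd83, 92.1 CPM against 45.1 CPM for Cd80 and 227 CPM against 109 CPM for Ccl22. Fabp5, at 5518 CPM against 4514 CPM, and Cd86, at 200.4 CPM against 226 CPM, differed little between the 2 sets of cells. The same held for Cd40, at 143 CPM against 122 CPM, and Cd209a, at 17.3 CPM against 18.4 CPM. Ccl17 was higher with both genes in WT TNF (155 CPM against 81.5 CPM) and lower in TRIF-KO TNF (1.86 CPM against 19.5 CPM). The 20 cells with both genes in the PBS libraries had Cd83 at 943 CPM, but Fabp5 at 432 CPM and Cd86 at 68.8 CPM. The 221 PBS cells without both genes had Fabp5 at 103 CPM, and it was detected in 16.7% of them against 40.0% of the 20 with both. The cells pool 2 libraries and are no replicates.

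**Figure D4:**
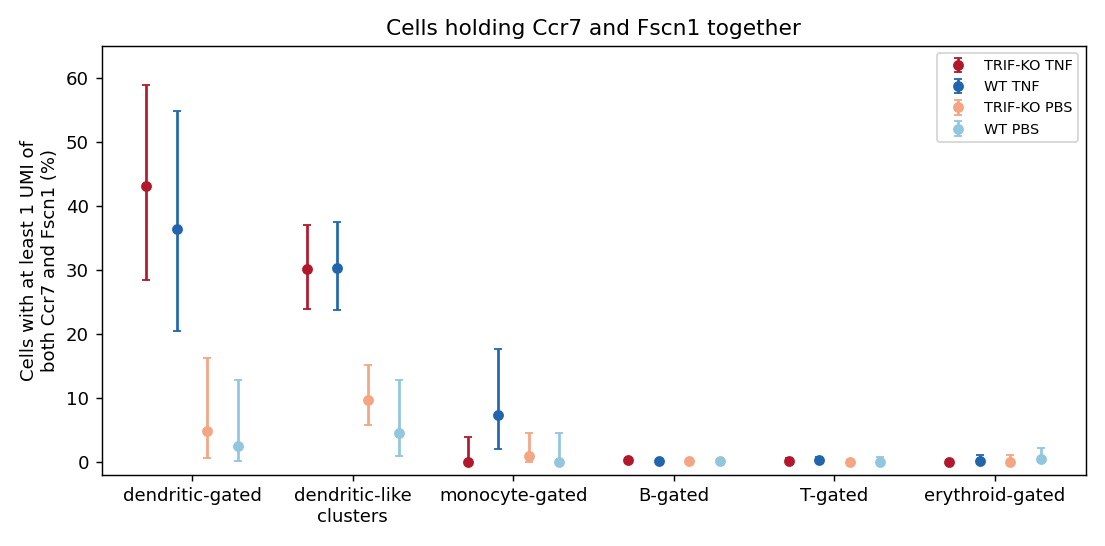
Share of cells (percent) with at least 1 UMI of both Ccr7 and Fscn1 in 6 cell classes, 1 point per library in the order TRIF-KO TNF, WT TNF, TRIF-KO PBS and WT PBS, with exact Clopper-Pearson 95% intervals. In the dendritic-like clusters both TNF libraries lie near 30.2%, above TRIF-KO PBS at 9.71% and WT PBS at 4.55%, and the shares in B-gated, T-gated and erythroid-gated cells are at most 0.394%.

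Other genes of the maturation programme were followed as a list of 24 companions, chosen with earlier results of these data known. 19 passed the filter in dendritic-gated cells, all but Nudt17, Cd200, Pdcd1lg2, Il15ra and Stat4. In TRIF-KO TNF over TRIF-KO PBS 12 of the 19 were at least 2-fold higher and none lower, against 9.74% of all genes higher, with a median log2 ratio of 1.19 beside 0.08 for all genes. Among them were Socs2, a suppressor of cytokine signalling (144 against 18 UMIs, log2 2.43), and Cd274, which encodes the inhibitory ligand PD-L1 (86 against 10 UMIs, log2 2.53). Samsn1 (397 against 71 UMIs, log2 1.91), Tbc1d4 (700 against 135 UMIs, log2 1.80), Anxa3 (106 against 19 UMIs, log2 1.91) and Tmem123 (351 against 81 UMIs, log2 1.54) followed. In WT TNF over WT PBS 16 of 19 were higher and none lower, against 8.64% of all genes higher, with a median of 2.32 beside −0.13. Il4i1, an amino acid oxidase (124 against 22 UMIs, log2 3.68), Anxa3 (34 against 6 UMIs, log2 3.69), Marcksl1 (122 against 30 UMIs, log2 3.21), Samsn1 (218 against 62 UMIs, log2 2.997) and Etv3, a transcriptional repressor (193 against 74 UMIs, log2 2.57), were examples. Socs2, with 33 against 0 UMIs, was at least 25.0-fold higher in WT TNF.

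Between the genotypes more companions passed 2-fold with PBS than after TNF. In TRIF-KO TNF over WT TNF 2 of 19 were at least 2-fold higher, Socs2 (log2 1.27) and Serpinb6b (log2 1.04), and none was lower, against 6% of all genes higher, with a median of 0.16 beside 0.10 for all genes. In TRIF-KO PBS over WT PBS 12 of 19 were higher and none lower, against 2.64% of all genes higher, with a median of 1.10 beside −0.12. Cacnb3, a calcium channel subunit (28 against 4 UMIs, log2 3.71), Ccl5, a chemokine for T cells (199 against 60 UMIs, log2 2.63), Il4i1 (74 against 22 UMIs, log2 2.65), Marcksl1 (73 against 30 UMIs, log2 2.18) and Serpinb9, an inhibitor of granzyme B (48 against 23 UMIs, log2 1.961), were among them, and Socs2, with 18 against 0 UMIs, was at least 11.2-fold higher. In the clusters the counts were 10 and 17 of 20 higher for TNF over PBS in TRIF-KO and WT, 2 of 20 lower for TRIF-KO TNF over WT TNF, and 10 of 20 higher for TRIF-KO PBS over WT PBS. The shares of all genes there were 5% and 8.59% higher, 1.3% lower and 3.29% higher for the same 4 comparisons. The companions' medians were 0.92, 2.29, −0.12 and 0.93, beside −0.04, −0.19, 0.04 and −0.05 for all genes. How the companion UMIs were spread over cells was not examined. The part of the TRIF-KO PBS cells with no majority of either dendritic type in these ratios was not tested.

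Genes of MHC class II presentation, 9 in all and all measured, held none that was at least 2-fold higher with TNF. 2 were at least 2-fold lower in TRIF-KO TNF and 4 in WT TNF, against 6.63% and 14.5% of all genes. H2-DMb1, a subunit of the peptide-loading chaperone H2-DM, had 51 against 150 UMIs in TRIF-KO (log2 −2.13) and 32 against 282 UMIs in WT (log2 −1.957). H2-DMa, the other subunit, stood at log2 −1.14 in TRIF-KO and −1.27 in WT. Ciita, the master regulator of these genes, was at log2 −0.35 in TRIF-KO (197 against 169 UMIs) and −1.57 in WT (76 against 514 UMIs). March1, a ubiquitin ligase that removes MHC class II from the surface, was at log2 −0.60 in TRIF-KO (65 against 66 UMIs) and −1.69 in WT (25 against 183 UMIs). The list's medians were −0.37 in TRIF-KO and −0.66 in WT, beside 0.08 and −0.13 for all genes, and no member of it passed 2-fold between the genotypes.

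Of 12 cytokines and TNF family ligands of dendritic cells only Il1b passed the filter, with 124 against 37 UMIs in TRIF-KO (log2 1.17) and 149 against 110 UMIs in WT (log2 1.62). Its level after TNF was lower in TRIF-KO than in WT (log2 −1.12). Il12b, which encodes a subunit of interleukin 12, was below the filter with 1 UMI in TRIF-KO TNF and 18 in WT TNF, against 0 in both PBS libraries. Of 8 ligands and receptors of the members only Icosl was measured, at log2 0.90 in TRIF-KO and 0.69 in WT, and of 10 close relatives none was.

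Levels of genes across 8 classes in 4 libraries (32 points) were compared with those of 4 members by the Pearson correlation of log2(CPM + 10), among 2535 genes. These points share libraries and depth, so the values are descriptions. Closest to Ccr7 were Il21r (0.84), Gramd3 (0.81) and Birc2 (0.81). Closest to Fscn1 were Bcl2l14 (0.95), Cacnb3 (0.91) and Scn3a (0.89). Closest to Ccl22 were Fscn1 (0.84), 1700011B04Rik (0.83) and Strip2 (0.80), and closest to Cd83 were Cd86 (0.90), Gm6377 (0.84) and H2-Eb1 (0.84).

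Monocyte-gated cells numbered 94 in TRIF-KO TNF, 55 in WT TNF, 120 in TRIF-KO PBS and 81 in WT PBS. Their own 12 markers summed to 5521, 5279.8, 8299.5 and 10492 CPM, and the dendritic markers to 153 and 199 CPM with TNF and 358 and 358 CPM with PBS. 4 of the 10 members were measured, Fabp5, Cd86, Cd40 and Cd209a, among 3956 genes. Fabp5 had 1211 UMIs (657 CPM) in TRIF-KO TNF and 607 UMIs (1040.2 CPM) in WT TNF, against 81 UMIs (70.8 CPM) in TRIF-KO PBS and 284 UMIs (235 CPM) in WT PBS. TNF over PBS was log2 3.21 (2.89 to 3.56) in TRIF-KO and 2.15 (1.94 to 2.36) in WT, so here the TRIF-KO ratio was the larger one, and TRIF-KO PBS was the lowest library. Cd40 had 150, 82, 49 and 24 UMIs, or 81.4, 140.5, 42.8 and 19.8 CPM, with TNF over PBS at log2 0.93 (0.45 to 1.42) in TRIF-KO and 2.82 (2.15 to 3.54) in WT. Cd86 had 45, 39, 24 and 18 UMIs, with log2 ratios of 0.22 (−0.53 to 0.999) in TRIF-KO and 2.17 (1.33 to 3.06) in WT.

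In TRIF-KO TNF over TRIF-KO PBS 1 of the 4 was at least 2-fold higher and 1 lower, against 13.5% and 13.9% of all genes. In WT TNF over WT PBS 3 were higher and none lower, against 10.1% and 21.2%, with a median of 2.16 for the members and −0.23 for all genes. After TNF 2 of the 4, Cd86 and Cd209a, were lower in TRIF-KO than in WT and none was higher (background 3.54% and 9.93%). With PBS 2 were higher in TRIF-KO, Cd40 and Cd209a, and 1 lower, Fabp5 (1.95% and 3.54%). Cd86 passed the CPM limit of the filter only through WT TNF, Cd40 only through the TNF libraries and Cd209a only through TRIF-KO PBS. The counts in monocytes therefore describe the genes that passed and no more. Cd209a had 3 UMIs in TRIF-KO TNF and 21 in WT TNF, against 160 in TRIF-KO PBS and 47 in WT PBS. It lay in 15 of 120 cells in TRIF-KO PBS and in at most 4 cells in each other library.

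The 6 members below the filter in monocytes had their highest CPM in WT TNF. Cd80 had 29, 49, 8 and 8 UMIs in TRIF-KO TNF, WT TNF, TRIF-KO PBS and WT PBS, and lay in 49.1% of monocyte-gated cells of WT TNF. Ccl22 had 12, 81, 0 and 3 UMIs, Ccl17 had 6, 45, 0 and 0, and Fscn1 had 36, 34, 4 and 0. Cd83 had 17, 35, 11 and 26 UMIs, of which 1 cell held 92.3% in WT PBS. Ccr7 had 0 UMIs in TRIF-KO TNF and 44 in WT TNF, against 9 in TRIF-KO PBS and 21 in WT PBS. In WT TNF 4 monocyte-gated cells held both Ccr7 and Fscn1, against 0 in TRIF-KO TNF, 1 in TRIF-KO PBS and 0 in WT PBS. Without such cells the WT log2 ratio of Ccr7 was 0.22 in place of 2.12, while Ccl22 stayed at 4.89, Cd80 at 3.64, Cd40 at 2.74 and Fabp5 at 1.74. The monocyte-like clusters of WT TNF held fewer UMIs of Ccl22 (10), Ccl17 (1), Ccr7 (11) and Fscn1 (14) than the gate. Cd80, with 53 UMIs, and Cd83, with 36, stayed near their gated counts there. The high Ccl22 and Ccl17 counts of WT TNF thus held for the gate only.

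**Figure D5:**
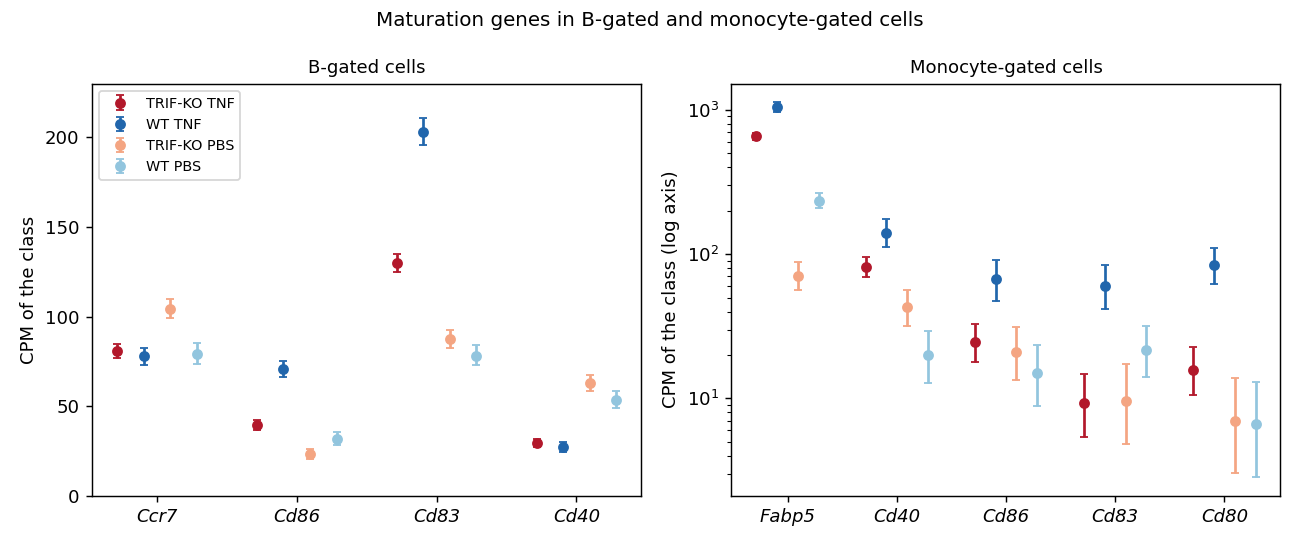
Levels of the 4 members measured in B-gated cells (left, CPM on a linear axis from 0) and of 5 members in monocyte-gated cells (right, CPM on a log axis), 1 point per library in the order TRIF-KO TNF, WT TNF, TRIF-KO PBS and WT PBS, with exact Poisson 95% intervals. In B cells Cd83 and Cd86 are highest in WT TNF and Cd40 is lower in both TNF libraries. In monocytes the 5 genes are highest in WT TNF, at 1040.2 CPM for Fabp5.

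B-gated cells, 3108, 2847, 2982 and 1266 in number, gave the most precise values. 4 members were measured among 2966 genes, namely Ccr7, Cd86, Cd83 and Cd40. Cd83 stood at 129.8 CPM (125 to 135) in TRIF-KO TNF and 203 CPM (196 to 211) in WT TNF, against 87.4 CPM (82.5 to 92.5) in TRIF-KO PBS and 78.2 CPM (72.7 to 84.0) in WT PBS. TNF over PBS was log2 0.57 (0.47 to 0.67) in TRIF-KO and 1.38 (1.26 to 1.496) in WT. Cd86 stood at 39.4 CPM in TRIF-KO TNF and 70.5 CPM in WT TNF, against 23.1 CPM in TRIF-KO PBS and 31.8 CPM in WT PBS, with log2 ratios of 0.77 (0.58 to 0.96) and 1.15 (0.96 to 1.34). The 2 genes had the same order of libraries at the top, WT TNF and then TRIF-KO TNF. Thinned to 2000 UMIs, Cd83 was found in 18.6%, 28.7%, 12.9% and 11.3% of B-gated cells, against 0% to 0.873% of erythroid-gated cells.

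Cd40 differed in the direction opposite to dendritic cells. B-gated cells had 29.1 CPM (26.9 to 31.5) in TRIF-KO TNF and 27.1 CPM (24.4 to 29.96) in WT TNF, against 62.9 CPM (58.7 to 67.2) in TRIF-KO PBS and 53.4 CPM (48.9 to 58.3) in WT PBS. It was 2.16-fold lower with TNF in TRIF-KO (log2 −1.11, −1.26 to −0.96) and 1.97-fold lower in WT (log2 −0.98, −1.18 to −0.78). In dendritic-gated cells Cd40 was 2.33-fold and 3.49-fold higher in the same comparisons. Ccr7, which follicular B cells also use, stood at 80.6 CPM in TRIF-KO TNF and 77.8 CPM in WT TNF, against 104 CPM in TRIF-KO PBS and 79.3 CPM in WT PBS. Its log2 ratios were −0.37 (−0.47 to −0.27) in TRIF-KO and −0.03 (−0.16 to 0.11) in WT, and B-gated cells held no difference of the size seen in dendritic cells.

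Of the 4 members in B cells, none in TRIF-KO TNF over TRIF-KO PBS was at least 2-fold higher and 1, Cd40, was lower, against 1.38% and 0.337% of all genes. In WT TNF over WT PBS 2, Cd83 and Cd86, were higher and none lower, against 1.35% and 1.96%. Cd86 passed the CPM limit of the filter only through WT TNF, at 70.5 CPM. Cd40 passed it only through TRIF-KO PBS and WT PBS, at 62.9 and 53.4 CPM. Both were thus admitted by libraries where they were high, so the counts in B cells describe the genes that passed and no more. Between the genotypes none passed 2-fold after TNF (0.0337% higher and 0.27% lower of all genes) or with PBS (0.135% and 0.405%). After TNF, Cd86 was at log2 −0.84 (−0.98 to −0.71) and Cd83 at −0.65 (−0.72 to −0.57) for TRIF-KO over WT, against −0.46 (−0.69 to −0.22) and 0.16 (0.03 to 0.29) with PBS. The difference between the responses was −0.81 (−0.96 to −0.65) for Cd83, −0.38 (−0.65 to −0.12) for Cd86 and −0.34 (−0.51 to −0.18) for Ccr7, and for Cd40, at −0.13 (−0.37 to 0.11), it spanned 0. The other 6 members were below the filter in B-gated cells, at no more than 48.1 CPM. Fabp5 gave that value in TRIF-KO TNF, where 1 cell held 28.4% of its UMIs. Dendritic markers summed to 27.8 and 20.6 CPM in B-gated cells of TRIF-KO TNF and WT TNF and to 26.6 and 35.6 CPM in those of TRIF-KO PBS and WT PBS, and their part in the low values was not tested.

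With clusters in place of the gate, B-like cells measured the same 4 members among 3008 genes. In TRIF-KO TNF over TRIF-KO PBS 0 were higher and 1 lower (1.4% and 0.432% of all genes), and in WT TNF over WT PBS 2 were higher and 1 lower (1.46% and 2.06%). None passed 2-fold in TRIF-KO TNF over WT TNF (0.0665% and 0.199%) or in TRIF-KO PBS over WT PBS (0.133% and 0.332%). Monocyte-like clusters measured 3 members, Fabp5, Cd86 and Cd40, among 3912 genes. 2 were higher and 0 lower with TNF in TRIF-KO (11.5% and 13.5%) and in WT (11.5% and 21.3%). 0 were higher and 0 lower in TRIF-KO TNF over WT TNF (5.83% and 2.33%), and 0 were higher and 1 lower in TRIF-KO PBS over WT PBS (1.79% and 2.76%). As with the gate, Cd86 and Cd40 passed the filter in both kinds of cluster only through libraries where they were high.

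Ticam1, the gene that the TRIF-KO label refers to, was detected in all 4 libraries. It had 3, 2, 7 and 6 UMIs in dendritic-gated cells, 27, 6, 16 and 19 in monocyte-gated cells and 200, 72, 166 and 89 in B-gated cells of TRIF-KO TNF, WT TNF, TRIF-KO PBS and WT PBS. In B-gated cells these are 9.31, 5.198, 12.3 and 9.39 CPM, so the level was not lower in the TRIF-KO library with either injection. The labels do not say how the gene was altered, so whether the counted tags would be lost is not known. The RNA therefore cannot check the genotype labels, by which the libraries are called here.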

How the data were processed

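The deposited matrices hold raw counts of UMIs, whole numbers per gene and barcode. Cell Ranger 3.0 and Seurat 4.1.1 with build mm10 were used per the submitters' processing notes, while the file headers name Cell Ranger 6.0.1. No annotation release was found in the labels or headers. Barcodes under 200 genes or over 10% mitochondrial UMIs were dropped, and the highest Scrublet scores (expected rate 0.06) were removed as doublets at 0.8% per 1000 barcodes (399, 221, 256 and 50 barcodes in TRIF-KO TNF, WT TNF, TRIF-KO PBS and WT PBS). UMIs were summed per library and class. Ratios have exact conditional intervals, and differences of responses use a normal approximation on counts plus 0.5. Clusters came from 2000 variable genes without the members and companions (30 principal components, 15 neighbours, Leiden resolution 1). Cluster names need a mean log2 enrichment of at least 0.5 with a pseudocount of 20 CPM. All members were named in every class. Of the companion lists, up to 6 highest and 4 lowest genes past 2-fold were named per comparison by the interval bound nearest to 1, and 3 genes with the highest correlation for Ccr7, Fscn1, Ccl22 and Cd83. Icosl, Il12b and the values of Ciita and March1 in TRIF-KO were chosen after their values were seen. The members and lists were chosen with earlier results of these data known. Python 3.11.15, numpy 2.4.6, scipy 1.17.1, pandas 2.3.3, scanpy 1.11.5 and matplotlib 3.10.9 were used, and the count steps were tested on simulated data. Gene positions come from GENCODE M21 by gene ID, and no batch is given in the labels. The alternatives covered the gate, clusters, filters, doublets, scaling, thinning and the highest cell.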

Additional observations from a re-analysis of the deposited data

Results flagged for a closer look

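Ccr7 in monocyte-gated cells went in opposite directions with TNF in the 2 genotypes. TRIF-KO TNF had 0 UMIs and TRIF-KO PBS had 9, all in 1 cell, so the level was at least 4.83-fold lower with TNF against a floor of 3 counts. WT TNF had 44 UMIs and WT PBS had 21, a log2 ratio of 2.12, of which 1 cell held 40.9% in WT TNF and 1 cell held 90.5% in WT PBS. The difference was not tested, and Ccr7 was below the filter in this class. Without cells holding both Ccr7 and Fscn1, the WT log2 ratio was 0.22. In the monocyte-like clusters Ccr7 had 4 UMIs in TRIF-KO TNF and 11 in WT TNF, against 5 in TRIF-KO PBS and 7 in WT PBS.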

How the results depend on the processing

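No paired analysis was possible because each group had 1 library and the labels give no replicate numbers. A gate of at least 2 markers, and CPM computed after dropping immunoglobulin, haemoglobin, ribosomal and mitochondrial genes, left every count and share over the members and over all genes within 1.5 times the reported one. The alternative without cells holding both Ccr7 and Fscn1 was chosen after seeing the data. Below, "higher" and "lower" mean by at least 2-fold.

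A gate of at least 4 markers left 21, 13, 28 and 39 dendritic cells in TRIF-KO TNF, WT TNF, TRIF-KO PBS and WT PBS and 5 measured members. Of these, 2 were higher in TRIF-KO TNF over TRIF-KO PBS, 5 higher in WT TNF over WT PBS and 5 lower in TRIF-KO TNF over WT TNF. All genes were 10.3% higher and 7.30% lower in TRIF-KO TNF over WT TNF and 1.68% higher in TRIF-KO PBS over WT PBS, 0% of WT PBS cells held both Ccr7 and Fscn1, and 1 member was lower in monocytes in WT TNF over WT PBS.

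With maturation markers added to the gate list (106, 119, 79 and 50 cells), 1 of 10 members was lower with TNF in each genotype, 3.47% of genes were higher in TRIF-KO TNF over WT TNF, and 16.5% of TRIF-KO PBS cells held both genes. In monocytes 2 members were then higher in TRIF-KO TNF over TRIF-KO PBS, 1 lower in WT TNF over WT PBS, 1 higher and 1 lower in TRIF-KO TNF over WT TNF and 1 higher in TRIF-KO PBS over WT PBS.

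With clusters in place of the gate, 1 of 10 dendritic members was lower with TNF in each genotype. The shares of all genes were 5.005% higher in TRIF-KO TNF over TRIF-KO PBS, 3.59% higher and 1.30% lower in TRIF-KO TNF over WT TNF, and 2.95% lower in TRIF-KO PBS over WT PBS. In monocyte-like clusters, of which 1 held 87 and 56 cells of TRIF-KO TNF and WT TNF and another 112 and 80 of TRIF-KO PBS and WT PBS, 2 of 3 members were higher and 0 lower in TRIF-KO TNF over TRIF-KO PBS, 0 lower in TRIF-KO TNF over WT TNF and 0 higher in TRIF-KO PBS over WT PBS, with 5.83% of genes higher and 2.33% lower in TRIF-KO TNF over WT TNF. In B-like clusters 1 member was lower in WT TNF over WT PBS and 0.0665% of genes were higher in TRIF-KO TNF over WT TNF.

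Direction turned for 2 measured member ratios under a change of cells. Fscn1 in TRIF-KO TNF over WT TNF in dendritic cells was log2 −0.15 with 2 markers, −1.58 with 4, −0.13 with the longer list and −0.20 by cluster. Fabp5 in the same comparison in monocytes was log2 0.24 with 4 markers and 0.22 by cluster. Among low counts, Cd83 in monocytes in TRIF-KO PBS over WT PBS, reported at log2 −1.16, was 1.75 with the longer list, 2.74 by cluster and 2.08 without the highest cells. In B-like clusters Fscn1 was at log2 −0.85 in TRIF-KO TNF over TRIF-KO PBS, Fabp5 at −0.18 in TRIF-KO TNF over WT TNF, Cd209a at 0.48 in TRIF-KO PBS over WT PBS, and the difference of responses of Fabp5 at −0.00799. Without the highest cells, Fabp5 in dendritic cells was at log2 −0.0112 in TRIF-KO PBS over WT PBS. The cause of these changes was not tested. Median-of-ratios scaling turned no measured member whose interval excluded 0.

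That scaling gave 2.998% of genes lower in TRIF-KO TNF over WT TNF and 2.60% in TRIF-KO PBS over WT PBS in dendritic cells, 5.69% lower in TRIF-KO TNF over WT TNF in monocytes and 1.11% lower in WT TNF over WT PBS in B cells. At most 5% mitochondrial UMIs gave, in B cells, 1 of 5 members higher in TRIF-KO TNF over TRIF-KO PBS, 1 higher and 1 lower in TRIF-KO TNF over WT TNF and 1 lower in TRIF-KO PBS over WT PBS, with 0.265% of genes higher in TRIF-KO TNF over WT TNF and 1.19% lower in TRIF-KO PBS over WT PBS. No doublet removal gave, in B cells, 1 member lower in WT TNF over WT PBS and 0.339% of genes higher and 0.136% lower in TRIF-KO TNF over WT TNF. Thinning gave 26.2% and 18.2% of dendritic-gated cells with both Ccr7 and Fscn1 in TRIF-KO TNF and WT TNF.

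The filter set the background. With a minimum of 200 UMIs, 3.93% of dendritic genes were higher in TRIF-KO TNF over WT TNF, 3.20% lower in TRIF-KO PBS over WT PBS, and 1.28% of monocyte genes higher in TRIF-KO PBS over WT PBS. With no filter other than 1 UMI, dendritic genes were 24.0% higher and 16.5% lower in TRIF-KO TNF over TRIF-KO PBS, 13.8% and 33.2% in WT TNF over WT PBS, 24.5% and 11.1% in TRIF-KO TNF over WT TNF and 10.2% and 25.8% in TRIF-KO PBS over WT PBS. Monocyte genes were 22.0% lower in TRIF-KO TNF over TRIF-KO PBS, 33.6% lower in WT TNF over WT PBS, 27.7% higher and 9.61% lower in TRIF-KO TNF over WT TNF and 14.2% and 13.9% in TRIF-KO PBS over WT PBS. B genes were 13.7% higher and 9.53% lower, 13.4% and 14.4%, 10.4% and 11.2%, and 9.57% and 14.2% in the same 4 comparisons.

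Dendritic-gated cells held 295475 to 670867 UMIs per library, and a count of 0 allowed up to 4.47 to 10.2 CPM.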
